A study of Mus musculus with 12 samples.

Results

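The CC chemokines are small secreted proteins that draw leukocytes towards their source, and 10 of their genes were followed here across bone marrow derived cultures forming osteoclasts, the cells that resorb bone. The members were the rows of the count table named Ccl2, Ccl3, Ccl4, Ccl5, Ccl6, Ccl7, Ccl8, Ccl9, Ccl12 and Ccl22, which made 10 of 47643 genes, and 9 of them were among the 13681 genes tested. Monocytes derived from bone marrow (BMMs) of WT mice on the BALB/c background were grown with M-CSF and RANKL, the cytokines that drive osteoclast formation, and all groups were harvested for bulk RNA sequencing on day 3, with 4 biological replicates a group. OCsCtr cultures were left untreated. OCsEo cultures received sorted eosinophils at a BMM to eosinophil ratio of 1 to 2 for 48 h. OCsEoS cultures received the supernatant of sorted eosinophils at a dilution of 1 to 2 for the same 48 h. The eosinophils came from IL-5tg/4get mice (blood and marrow, pooled), in which an IL-5 transgene expands this cell type, and they were sorted by surface CD45, CD125 and Siglec-F. Each library is the RNA of a whole culture, in which eosinophils left after the wash and osteoclasts at all stages are read together.

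CC chemokines carry a pair of adjacent cysteines near the start of the mature protein, and they act on G protein coupled receptors whose sharing between ligands is extensive. Ccl2, Ccl7 and Ccl12 attract monocytes through Ccr2, the receptor that lets these cells leave the bone marrow. Ccl3, Ccl5 and Ccl9 act through Ccr1. Osteoclasts and their precursors carry Ccr1, and RANKL is known to induce Ccl9 in them. Ccl22 attracts Ccr4 bearing T cells and is a product of macrophages and dendritic cells.

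In GRCm38 coordinates as the table gives them, 9 of the members lie on chromosome 11 in a pair of clusters. The first holds Ccl2, Ccl7, Ccl12 and Ccl8 within 81.2 kb, from 82035571 to 82116799. The second holds Ccl5, Ccl9, Ccl6, Ccl3 and Ccl4 within 139 kb, from 83525778 to 83664683, and 1409 kb lie between them. Ccl22 lies apart on chromosome 8, from 94745590 to 94751699. The coding stretch around the cysteine pair is shown for the 7 members whose values are described in most depth, to show the shared motif and how far the neighbours differ around it. Each is 60 bases of coding sequence from a single exon, read in the coding direction from the GRCm38 genome, with the codons of the adjacent cysteines in capitals. Positions are chr11:82036488-82036547 for Ccl2, chr11:82046520-82046579 for Ccl7 and chr11:82102616-82102675 for Ccl12, all in exon 2 of 3 on the plus strand. They are chr11:83648616-83648675 for Ccl3 (exon 2 of 3, minus strand) and chr11:83663464-83663523 for Ccl4 (exon 2 of 3, plus strand). They are chr11:83589350-83589409 for Ccl6 and chr11:83575890-83575949 for Ccl9, both in exon 3 of 4 on the minus strand.
Ccl2: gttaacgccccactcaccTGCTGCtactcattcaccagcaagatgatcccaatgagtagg
Ccl7: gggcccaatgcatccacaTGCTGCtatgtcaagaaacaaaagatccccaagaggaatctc
Ccl12: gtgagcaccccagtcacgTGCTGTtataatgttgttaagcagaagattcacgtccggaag
Ccl3: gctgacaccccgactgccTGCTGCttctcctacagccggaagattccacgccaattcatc
Ccl4: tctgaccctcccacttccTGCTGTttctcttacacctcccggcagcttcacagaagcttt
Ccl6: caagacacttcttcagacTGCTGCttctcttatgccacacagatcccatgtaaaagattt
Ccl9: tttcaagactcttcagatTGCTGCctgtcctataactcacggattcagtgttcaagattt

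Each of the 10 coding sequences held the adjacent pair once. The second codon was TGT in Ccl4 and Ccl12 and TGC in the other 8. Over whole coding sequences, the closest relatives were Ccl3 and Ccl4, at 68.1% identity, followed by Ccl7 and Ccl8 at 64.7% and Ccl6 and Ccl9 at 64.6%, against a median of 49.4% over all 45 pairs. The longest run of identical bases between any 2 members was 25 bases, and no stretch of 31 bases in the transcripts was shared between members, so that reads of that length or longer can be told apart between them. In Ccl9, 226 of 3015 such stretches also occur in other genes, against 18 of 1762 in Ccl6 and 6 of 928 in Ccl5. Ccl2 lies opposite Gm17268, which had 0 counts, and Ccl6 lies opposite E230016K23Rik, which had 34, 48 and 38 counts summed over the 4 libraries of OCsCtr, OCsEo and OCsEoS. Neither pair shares exon bases, and whether reads were counted by strand is not given in the sources used here.

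The libraries held 27837530 to 40327869 counts in genes, so that 3 counts, used here as the limit of detection, correspond to 0.0769 to 0.107 CPM (counts scaled to a common library size). That limit and the intervals below cover counting and replicate error of these libraries only. Levels are given in CPM on normalized library sizes and, where genes are compared with each other, in RPKM, which is CPM divided by the length in kilobases, on the gene lengths of the table. A gene was called higher or lower at an adjusted p under 0.05 in edgeR's quasi-likelihood test (Benjamini-Hochberg, over all 13681 genes) with an absolute log2 fold change over 0.5. At an unadjusted p under 0.05 in either direction, 4069 genes passed in OCsEo and 4686 in OCsEoS against OCsCtr. Between OCsEoS and OCsEo 1524 did. The osteoclast identity of the cultures was checked on 10 marker genes, whose summed level was 28358 to 34496 CPM in OCsCtr, 18093 to 23205 CPM in OCsEo and 14942 to 22171 CPM in OCsEoS. Of these 10 markers, 8 were lower in OCsEo than in OCsCtr and 8 were lower in OCsEoS, among them Mmp9 (log2 fold change -0.77 and -1.10) and Calcr, the calcitonin receptor (-0.81 and -1.08). In bulk samples such as these, fewer cells of a type and less RNA per cell cannot be told apart, and this holds for every value below.

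Ccl9 dominated the family in all cultures. In OCsCtr the mean level per length of Ccl9 was 898 ± 78.7 RPKM (SD, n = 4), followed by Ccl6 at 32.2 ± 5.90 RPKM and Ccl2 at 18.5 ± 1.98 RPKM, and these 3 genes did not overlap in any pair. Ccl3, Ccl7, Ccl4 and Ccl22 followed at means of 4.58, 3.91, 3.01 and 2.71 RPKM, and each overlapped with the next in this order. Ccl5 came next at 1.60 RPKM, and Ccl8 and Ccl12, at 0.424 and 0.401 RPKM, overlapped with each other. In OCsEo the first 6 places were the same, with Ccl6 at 70.2 ± 7.93 RPKM and Ccl2 at 40.3 ± 9.86 RPKM. In OCsEoS, Ccl6 at 46.8 ± 4.21 RPKM and Ccl2 at 46.6 ± 14.2 RPKM overlapped, and Ccl7 stood in the fourth place at 16.0 ± 3.58 RPKM, clear of Ccl4 at 6.10 RPKM below it. Of the summed CPM of the 10 members, Ccl9 made 96.6% ± 0.466 in OCsCtr, 93.9% ± 0.338 in OCsEo and 95.05% ± 0.484 in OCsEoS. The other 9 members together came to 95.7 ± 11.2 CPM in OCsCtr, 200 ± 26.0 CPM in OCsEo and 165 ± 16.5 CPM in OCsEoS, and their range in OCsCtr, 80.1 to 107 CPM, lay below those of both treated groups.

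**Figure D1:**
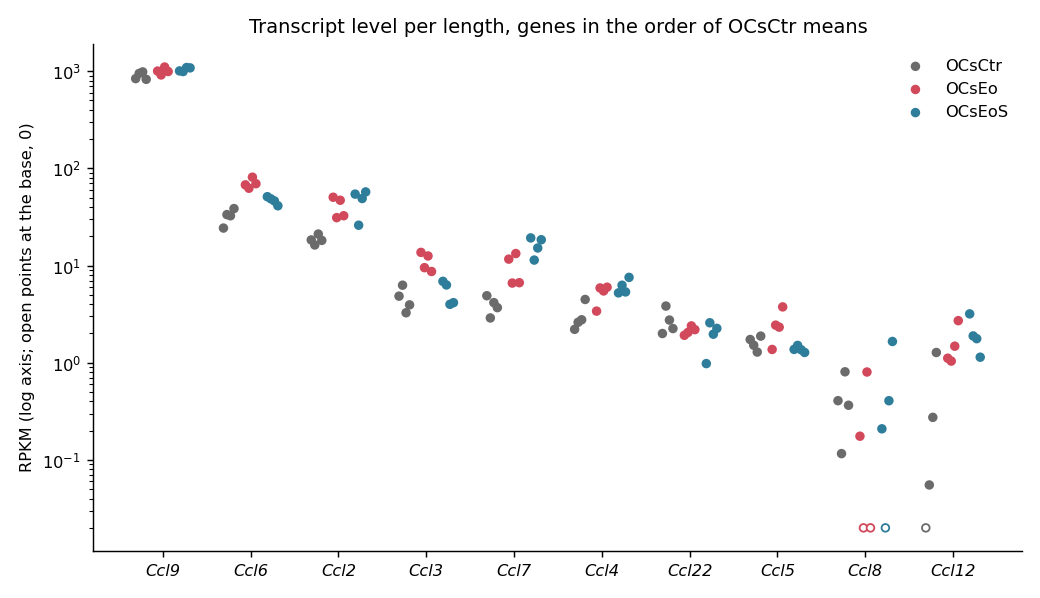
Level of each CC chemokine transcript per length (RPKM, logarithmic axis) in each library, with genes in the order of their OCsCtr means and 1 point a library, coloured by group. Ccl9 lies at 824 RPKM or more in every library, whereas Ccl6, Ccl2 and Ccl7 lie higher in OCsEo and OCsEoS than in OCsCtr. Open points at the base mark libraries with 0 counts.

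In OCsEo, 4 members were called higher than in OCsCtr (Ccl2, Ccl3, Ccl6 and Ccl7) out of 9 tested, where 3.27% of all genes tested were called higher. In OCsEoS, 4 members were also called higher than in OCsCtr (Ccl2, Ccl4, Ccl6 and Ccl7), where 3.63% of all genes were. No member was called lower than OCsCtr in either group by edgeR, where 2.61% of all genes were in OCsEo and 4.11% in OCsEoS, and none was lower at an unadjusted p under 0.05 or by DESeq2. The median log2 fold change over the 9 tested members was 1.12 in OCsEo and 0.54 in OCsEoS, beside -0.01 and -0.01 over all genes. Both comparisons use the same 4 OCsCtr libraries and so are not independent of each other. Between the treated groups, 2 members (Ccl3 and Ccl6) were called lower in OCsEoS than in OCsEo, where 0.307% of all genes were called lower. None was called higher by edgeR or by DESeq2, where edgeR called 0.0731% of all genes higher. At an unadjusted p under 0.05, 1 member (Ccl7) was higher and 3 (Ccl3, Ccl5 and Ccl6) were lower. Of all 13681 genes, 1524 passed that p in either direction.

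**Figure D2:**
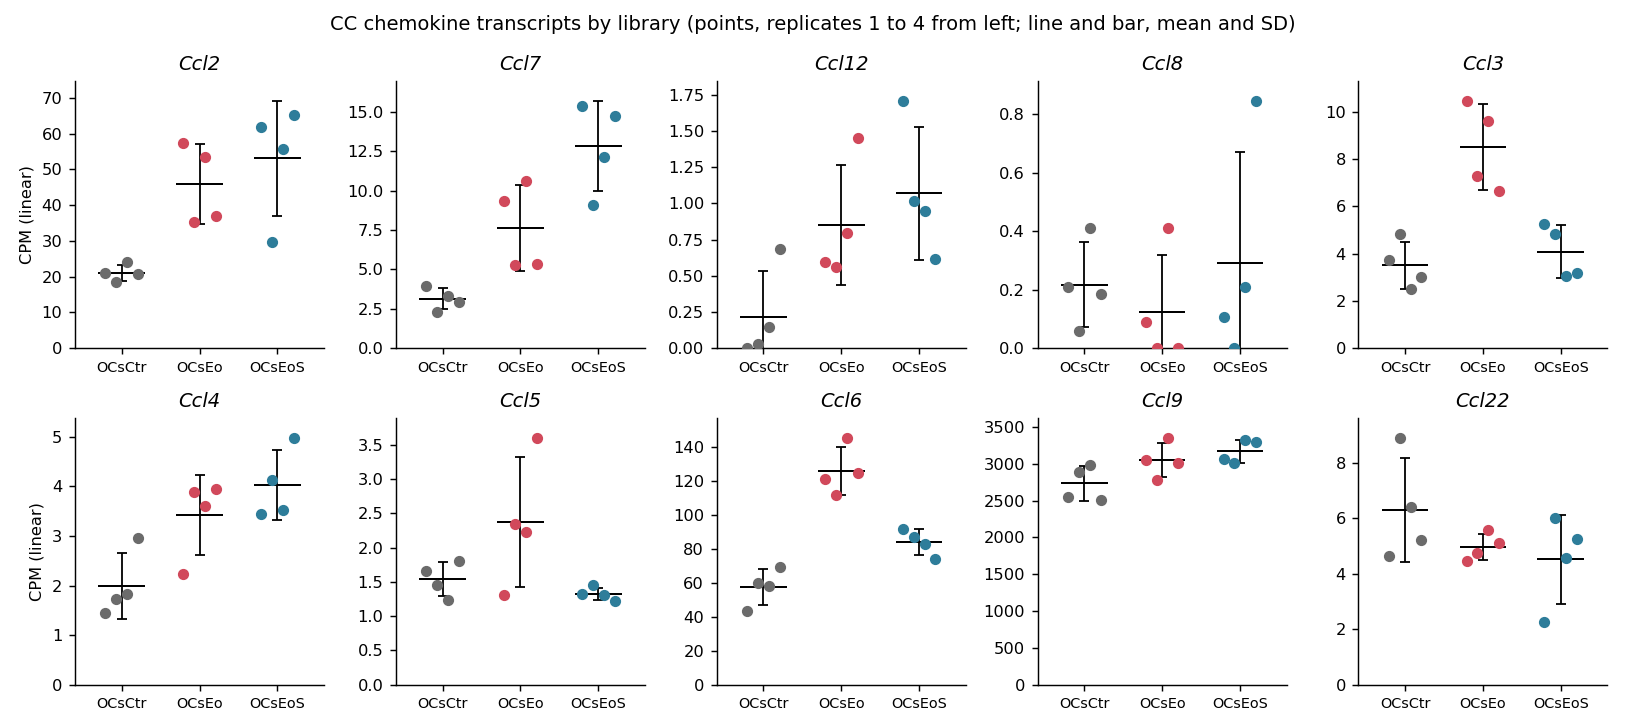
Level of each of the 10 CC chemokine transcripts (CPM, linear axes from 0) in each of the 12 libraries, with the group mean and SD. Ccl2, Ccl7 and Ccl6 lie above OCsCtr in all libraries of both treated groups, Ccl3 does so only in OCsEo, and Ccl4 does so in all libraries of OCsEoS.

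The first cluster holds the genes of the monocyte attractants Ccl2, Ccl7 and Ccl12, beside Ccl8. Ccl2, the main ligand of Ccr2, stood at 20.9, 18.5, 24.0 and 20.6 CPM in the OCsCtr libraries. It stood at 57.4, 35.4, 53.4 and 37.0 CPM in OCsEo and at 61.8, 29.6, 55.7 and 65.1 CPM in OCsEoS. All 8 treated libraries lay above all 4 OCsCtr libraries, the treated groups overlapped with each other, and OCsEoS 2 was the lowest of the treated libraries. The log2 fold change of Ccl2 against OCsCtr was 1.12 (SE 0.19, adjusted p = 0.000437) in OCsEo and 1.34 (SE 0.19, adjusted p = 6.42e-05) in OCsEoS. Between OCsEoS and OCsEo it was 0.21, with a 95% interval of -0.18 to 0.60 that reaches past the cut of 0.5 (adjusted p = 0.725).

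Ccl7, which also acts on Ccr2 and lies next to Ccl2, stood at 3.92, 2.31, 3.33 and 2.95 CPM in OCsCtr. It stood at 9.32, 5.29, 10.6 and 5.34 CPM in OCsEo and at 15.4, 9.12, 12.1 and 14.8 CPM in OCsEoS. Both treated groups lay above OCsCtr, and only the lowest OCsEoS library, OCsEoS 2, fell within the range of OCsEo. Against OCsCtr, Ccl7 had a log2 fold change of 1.29 (SE 0.24, adjusted p = 0.000934) in OCsEo and 2.04 (SE 0.24, adjusted p = 1.12e-05) in OCsEoS, a level 4.11-fold that of OCsCtr. The difference of OCsEoS from OCsEo was 0.75 (95% interval 0.27 to 1.22, adjusted p = 0.186) and was not called. It was called when low genes were not filtered out (adjusted p = 0.026).

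Ccl2 and Ccl7 were also compared with each other. The gene whose pattern was most like that of Ccl7 was Ccl2, by the root mean square difference of log2 CPM centred for each gene over the 12 libraries, which was 0.376 among 10631 genes. The next most like Ccl7 was Cd36, a scavenger receptor of macrophages, at 0.409. In the other direction Ccl2 was nearer to Lrr1 (0.238) and Mgst1, a microsomal glutathione transferase (0.270), than to Ccl7. The root mean square of the gene's own centred values was 0.900 for Ccl7 and 0.652 for Ccl2. The ratio of Ccl2 to Ccl7 in CPM was 6.88 ± 1.12 in OCsCtr, 6.20 ± 0.852 in OCsEo and 4.06 ± 0.597 in OCsEoS. The highest ratio in OCsEoS, 4.59, lay under the lowest in OCsEo, 5.02, and in OCsCtr, 5.33, and the ratio was not tested because it was chosen with the values known.

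**Figure D3:**
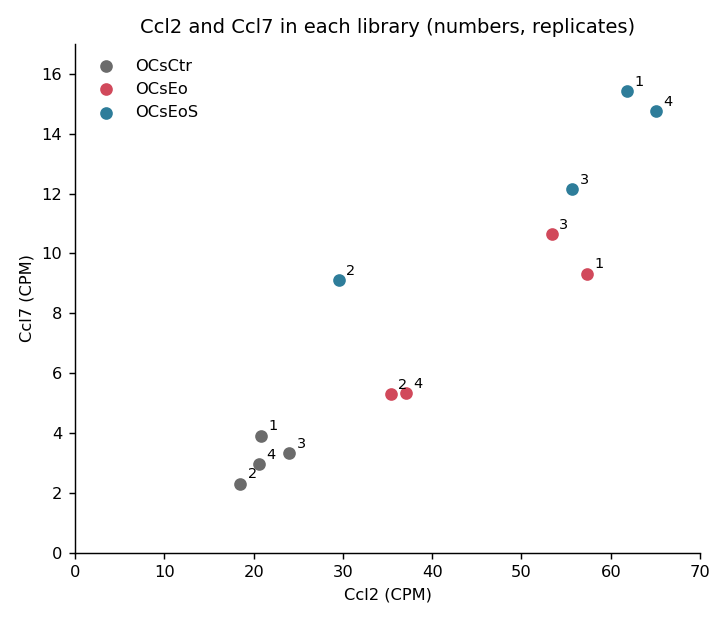
Ccl7 against Ccl2 (CPM, linear axes from 0) in the 12 libraries, coloured by group and numbered by replicate. The 4 OCsCtr libraries lie at the lower left, and the OCsEoS libraries hold more Ccl7 for their Ccl2 than those of OCsEo.

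Ccl12, a further Ccr2 ligand of the mouse, was low, with 20 to 48 counts in the treated libraries. It had 0, 1, 5 and 22 counts in the OCsCtr libraries, or 0, 0.0297, 0.147 and 0.684 CPM. It stood at 0.598, 0.558, 0.795 and 1.46 CPM in OCsEo and at 1.71, 1.01, 0.9498 and 0.612 CPM in OCsEoS. OCsCtr 4 alone lay within the range of the treated groups, and the other OCsCtr libraries lay below all 8 treated libraries. The log2 fold change of Ccl12 was 1.95 (SE 0.84, adjusted p = 0.12) in OCsEo and 2.29 (SE 0.84, adjusted p = 0.0564) in OCsEoS, and neither was called. Without OCsCtr 4 they were 3.72 (adjusted p = 0.00941) and 4.05 (adjusted p = 0.00425), and both were then called. Ccl8, which in the mouse is a ligand of Ccr8, was too low for the fit, at 0.0593 to 0.412 CPM in OCsCtr, 0 to 0.410 CPM in OCsEo and 0 to 0.846 CPM in OCsEoS. Its groups overlapped in every comparison, and exact permutation tests over 70 splits of 8 libraries (two-sided, adjusted over 3 tests) gave p = 0.486 for OCsEo (adjusted 0.814), p = 0.857 for OCsEoS (adjusted 0.857) and p = 0.543 between them (adjusted 0.814). A difference in Ccl8 was not detectable at this depth.

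The second cluster holds ligands of Ccr1, among them Ccl3. Ccl3 stood at 3.71, 4.81, 2.50 and 3.02 CPM in OCsCtr and at 10.5, 7.28, 9.61 and 6.65 CPM in OCsEo. In OCsEoS it stood at 5.27, 4.83, 3.06 and 3.18 CPM. Every OCsEo library lay above every library of the other groups, which overlapped with each other. Ccl3 had a log2 fold change of 1.28 (SE 0.24, adjusted p = 0.000947) in OCsEo and 0.22 (95% interval -0.29 to 0.72, adjusted p = 0.584) in OCsEoS. The difference of OCsEoS from OCsEo was -1.06 (SE 0.24, adjusted p = 0.0439) and was called. It was lost, with adjusted p between 0.051 and 0.153, when OCsCtr 1, OCsEo 1, OCsEo 2, OCsEo 3, OCsEoS 3 or OCsEoS 4 was left out, although the log2 fold change stayed between -1.13 and -0.95 in these fits.

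Ccl4, the closest relative of Ccl3, stood at 1.46, 1.72, 1.83 and 2.95 CPM in OCsCtr. It stood at 2.24, 3.88, 3.61 and 3.95 CPM in OCsEo and at 3.45, 4.14, 3.53 and 4.99 CPM in OCsEoS. OCsEoS lay wholly above OCsCtr, whereas OCsEo 1 fell below OCsCtr 4. The log2 fold change of Ccl4 was 1.02 (SE 0.27, adjusted p = 0.00973) in OCsEoS, which was called, and 0.78 (SE 0.27, adjusted p = 0.0526) in OCsEo, which was not. The difference between the treated groups was 0.24 (95% interval -0.31 to 0.79, adjusted p = 0.787), so that Ccl4 was not shown to differ between them. Without OCsCtr 4 the value in OCsEo was 1.03 (adjusted p = 0.0173), without OCsEo 1 it was 0.94 (adjusted p = 0.0264), and both were called, as it was without OCsEoS 4 (adjusted p = 0.0496) and by DESeq2 on all 12 libraries (adjusted p = 0.0365).

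Ccl5, a ligand of Ccr1 and Ccr3 made by T cells and activated macrophages, stood at 1.66, 1.45, 1.24 and 1.80 CPM in OCsCtr. It stood at 1.31, 2.34, 2.23 and 3.60 CPM in OCsEo and at 1.32, 1.45, 1.31 and 1.22 CPM in OCsEoS. The groups overlapped in all 3 comparisons, and the libraries of OCsEo spread more widely (CV 39.7%) than those of OCsCtr (16.1%) and OCsEoS (6.95%). Its log2 fold change was 0.62 (SE 0.34, adjusted p = 0.235) in OCsEo and -0.22 (SE 0.34, adjusted p = 0.718) in OCsEoS. Between OCsEoS and OCsEo it was -0.84 (95% interval -1.55 to -0.13, adjusted p = 0.349), which was not called.

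Ccl6 and Ccl9 are neighbours with 4 exons each in place of the 3 of the other members. Ccl6, made by macrophages and other myeloid cells, stood at 43.6, 60.0, 58.4 and 69.2 CPM in OCsCtr. It stood at 121, 112, 146 and 125 CPM in OCsEo and at 91.7, 87.2, 83.0 and 73.9 CPM in OCsEoS. The groups did not overlap in any of the 3 comparisons, with OCsEo highest and OCsEoS between it and OCsCtr. Against OCsCtr, Ccl6 had a log2 fold change of 1.12 (SE 0.11, adjusted p = 1.34e-06) in OCsEo and 0.54 (SE 0.11, adjusted p = 0.00142) in OCsEoS, which lies just past the cut of 0.5 and fell to 0.42 without OCsCtr 1. The difference of OCsEoS from OCsEo was -0.59 (SE 0.11, adjusted p = 0.0148), and it was not called without OCsEo 3 (adjusted p = 0.0526), OCsEoS 3 (0.0647) or OCsEoS 4 (0.0593).

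Ccl9 ranked between place 15 and place 31 among all genes by CPM in the 12 libraries, and its SD within a group was at most 8.77% of the mean. It stood at 2552, 2885, 2989 and 2508 CPM in OCsCtr and at 3051, 2783, 3357 and 3017 CPM in OCsEo. In OCsEoS it stood at 3061, 3017, 3317 and 3290 CPM. OCsEo overlapped with OCsCtr, and OCsEoS lay wholly above it. The log2 fold change of Ccl9 was 0.16 (95% interval 0.03 to 0.29, adjusted p = 0.0938) in OCsEo and 0.21 (95% interval 0.08 to 0.35, adjusted p = 0.0188) in OCsEoS, both under the cut of 0.5. Groups that do not overlap were seen for 4 of the 10 members in OCsEo and 5 in OCsEoS against OCsCtr, all higher, where 10.5% and 12.6% of all genes tested lay wholly higher. Between the treated groups, Ccl3 and Ccl6 lay wholly lower in OCsEoS, where 3.06% of all genes did.

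Ccl6 and Ccl9 differ widely in level although they lie next to each other, and the 250 bases before their RefSeq start sites are shown to compare them (GRCm38.p6, chr11:83593088-83593337 for Ccl6 and chr11:83578637-83578886 for Ccl9, both on the minus strand). Capitals mark matches on either strand to 6 motifs. These are the TATA box TATAAA, the PU.1 core GAGGAA and an AP-1 type site TGANTCA, with any base in the middle. The others are an NF-kB type site of GGG, any 2 bases and TTTCC, a C/EBP type site TTNNGNAA and a STAT6 type site of TTC, any 4 bases and GAA.
Ccl6: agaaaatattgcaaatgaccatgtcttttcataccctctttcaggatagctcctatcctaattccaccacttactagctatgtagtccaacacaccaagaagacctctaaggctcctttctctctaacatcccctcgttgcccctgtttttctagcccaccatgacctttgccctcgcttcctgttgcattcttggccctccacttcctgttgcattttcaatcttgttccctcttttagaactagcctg
Ccl9: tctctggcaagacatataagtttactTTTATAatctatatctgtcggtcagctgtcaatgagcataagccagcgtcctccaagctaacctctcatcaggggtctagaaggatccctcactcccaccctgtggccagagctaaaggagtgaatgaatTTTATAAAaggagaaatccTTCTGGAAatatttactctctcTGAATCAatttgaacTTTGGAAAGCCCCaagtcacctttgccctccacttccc

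None of the 6 motifs was found in the Ccl6 window. The Ccl9 window held 3 matches to the TATA box, of which the pair at -94 and -92 overlap on opposite strands. It also held 1 AP-1 type site at -53, whose letters are TGAATCA, and 1 NF-kB type site at -35. Of its 2 C/EBP type sites, the one at -38 overlaps the NF-kB type site. Of 32851 promoter windows of this length, 12.4% held the TATA box, 23.3% the PU.1 core, 6.75% the AP-1 type site, 1.41% the NF-kB type site, 36.9% the C/EBP type site and 5.85% the STAT6 type site. Among the other members in the RefSeq table, Ccl12 and Ccl8 held TATAAA at -31 and -32, Ccl3, Ccl8 and Ccl12 held GAGGAA, Ccl3 held 1 C/EBP type site, and Ccl22 held none of the 6. The table gave 6 of the 10 members. A match is a stretch of letters and not a measured binding site.

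Ccl22, apart from the others in position, was not called in any comparison. It stood at 4.65, 8.90, 6.39 and 5.22 CPM in OCsCtr, at 4.45, 4.76, 5.56 and 5.09 CPM in OCsEo and at 2.28, 5.99, 4.57 and 5.25 CPM in OCsEoS. The groups overlapped, with OCsCtr 2 the highest library and OCsEoS 1 the lowest. Its log2 fold change was -0.34 (95% interval -0.87 to 0.18, adjusted p = 0.402) in OCsEo and -0.47 (SE 0.25, adjusted p = 0.197) in OCsEoS, and it was the only tested member below OCsCtr in both groups.

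**Figure D4:**
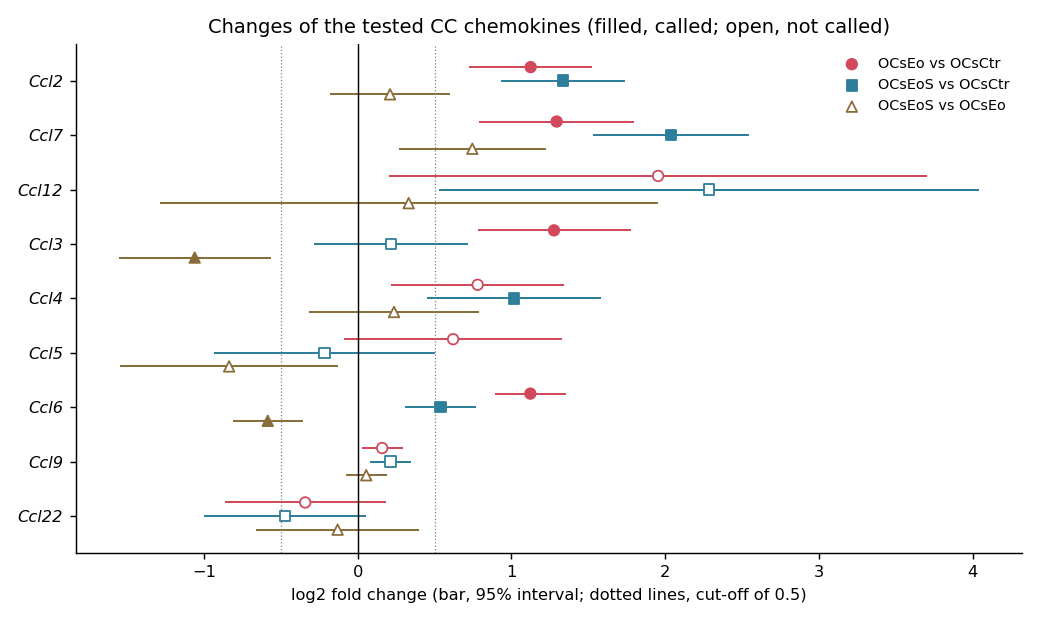
Log2 fold change of the 9 tested CC chemokines with its 95% interval in the 3 comparisons, with filled symbols where the gene was called and dotted lines at the cut of 0.5. The values of Ccl2, Ccl6 and Ccl7 against OCsCtr are filled in both treated groups, and those of Ccl3 and Ccl6 are filled between OCsEoS and OCsEo.

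Patterns most like those of the other called members were found by the same measure over 10631 genes and 12 libraries. For Ccl3 they were Elane, the elastase of neutrophil precursors (0.342), and the selenoprotein gene Sepw1 (0.351). For Ccl6 they were the fatty acid binding protein gene Fabp5 (0.173) and Gm6166 (0.190), and for Ccl4 they were Tmem107 (0.231) and Ass1, argininosuccinate synthase (0.270). The root mean square of the member's own centred values was 0.645 for Ccl3, 0.495 for Ccl6 and 0.537 for Ccl4. Beside it, the genes nearest to Ccl3 were not close. Fabp5 had log2 fold changes of 1.20 in OCsEo and 0.57 in OCsEoS, and the measure itself picks genes whose changes are of similar size.

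Of the eosinophil markers tested, Alox15 and Siglecf were called higher in OCsEo, where Ccl3 and Ccl6 were highest, and the others were not. The markers not tested were too low for the fit, so a change in them was not assessed. Alox15, a lipoxygenase of eosinophils and of some macrophages, stood at 0.104 to 0.653 CPM in OCsCtr, 6.24 to 16.7 CPM in OCsEo and 0.178 to 1.13 CPM in OCsEoS. Siglecf, the sorting marker, stood at 0.218 to 0.653 CPM in OCsCtr, 2.53 to 3.28 CPM in OCsEo and 0.237 to 1.302 CPM in OCsEoS. The eosinophil granule gene Epx was at 0 to 0.479 CPM in OCsEo, at 0 in 2 of its 4 libraries, and Prg2 stood at 3.85 to 7.83 CPM in OCsCtr and 4.21 to 7.25 CPM in OCsEo. Epx, Prg3, Ear1 and Ear6 were at 0 in all 4 OCsEoS libraries. Ear1, too low for the fit, stood at 0 to 0.178 CPM in OCsCtr and 0.0693 to 0.771 CPM in OCsEo. Of 10 eosinophil markers 5 were tested, and 2 of them (Siglecf and Alox15) were called higher in OCsEo while 1 (Prg2) was called lower in OCsEoS than in OCsCtr. The summed level of the 10 was 57.1 to 73.7 CPM in OCsCtr, 60.1 to 82.2 CPM in OCsEo and 49.3 to 55.5 CPM in OCsEoS. Most of this sum was Ccr3, a chemokine receptor of eosinophils, at 51.3 to 65.6, 45.7 to 53.2 and 47.3 to 53.0 CPM. Ccr3 was lower in OCsEo than in OCsCtr (log2 fold change -0.29, edgeR adjusted p = 0.0164), under the cut of 0.5. It was then left out, with the values known. The other 9 summed to 5.30 to 10.7 CPM in OCsCtr, 14.4 to 29.0 in OCsEo and 1.63 to 4.83 in OCsEoS. The 3 groups did not overlap in this sum. Its rise in OCsEo was mostly that of Alox15. Its fall in OCsEoS was mostly that of Prg2, which reached at most 1.79 CPM there. The separation was therefore not one shared by all 9 genes. Ccl3 and Ccl6 were higher in the same 4 OCsEo libraries, and the part of RNA from added eosinophils in their levels was not tested.

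**Figure D5:**
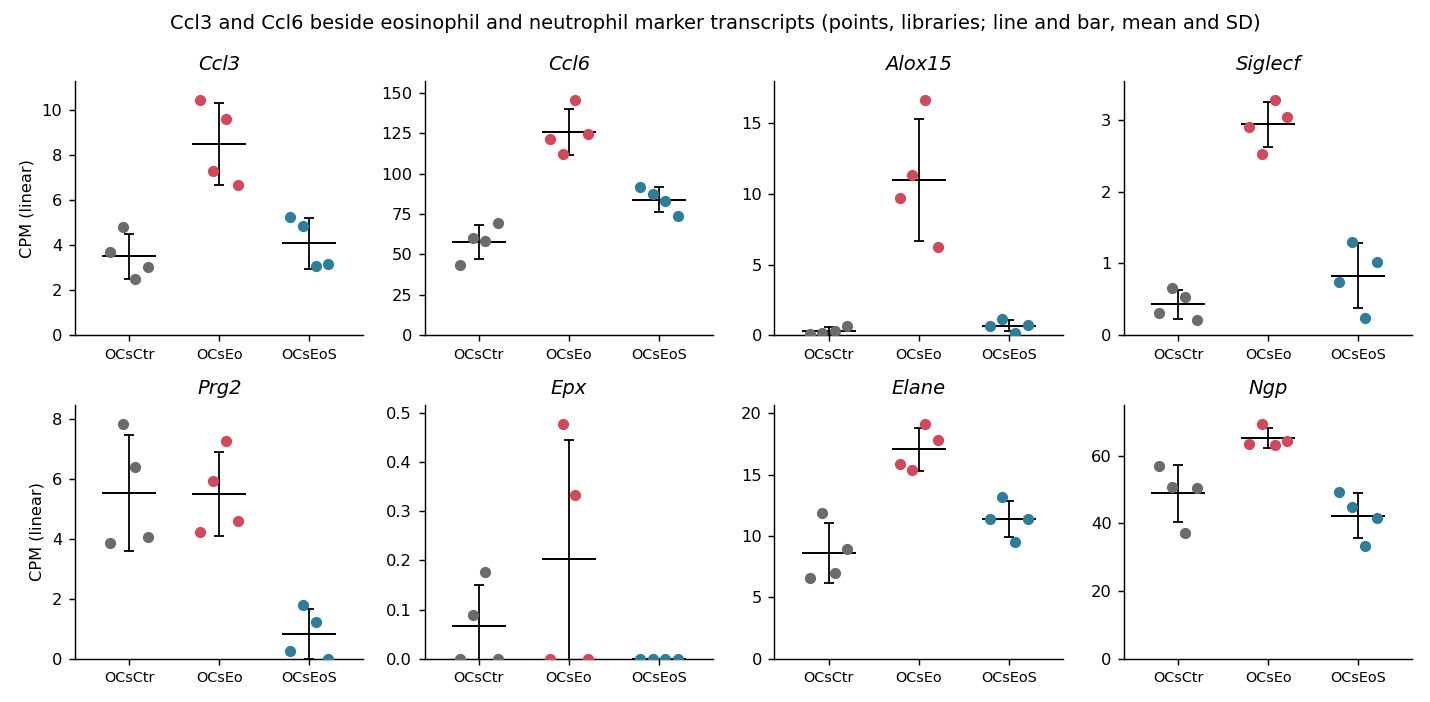
Ccl3 and Ccl6 beside 4 eosinophil genes (Alox15, Siglecf, Prg2, Epx) and 2 neutrophil genes (Elane, Ngp) in CPM (linear axes from 0), with 1 point a library and the group mean and SD. Alox15, Siglecf and Elane lie highest in OCsEo, as Ccl3 and Ccl6 do, whereas Epx is under 0.5 CPM in every library.

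Neutrophil genes also moved. The 10 neutrophil markers summed to 314 to 457 CPM in OCsCtr, 459 to 614 CPM in OCsEo and 359 to 429 CPM in OCsEoS, and OCsEo lay above both other groups. In OCsEo 2 of 10 were called higher than in OCsCtr (Elane, log2 fold change 0.99, and Camp, 0.51), and 3 were called lower in OCsEoS than in OCsEo (Mpo, -0.79, Ltf, -0.84, and Ngp, -0.62). No neutrophil marker was called in OCsEoS against OCsCtr by edgeR or DESeq2, where 1 was higher and 2 were lower at an unadjusted p under 0.05. Of all 13681 genes, 4686 passed that p in either direction. Of 9 macrophage markers tested, Cd14, a co-receptor for lipopolysaccharide, was called higher in OCsEo (0.58) and in OCsEoS (0.69), and Adgre1 (0.56) and Mrc1 (0.80), the genes of F4/80 and the mannose receptor, were called higher in OCsEoS. Cd68, a lysosomal glycoprotein gene and the most abundant of the list, was at 708 to 792 CPM in OCsCtr, 681 to 791 CPM in OCsEo and 555 to 660 CPM in OCsEoS. Its log2 fold change in OCsEoS was -0.33 against OCsCtr (adjusted p = 0.000616) and -0.30 against OCsEo (adjusted p = 0.0271), under the cut of 0.5 although OCsEoS lay wholly below both. The macrophage markers summed to 1082 to 1263 CPM in OCsCtr, 1217 to 1445 CPM in OCsEo and 1122 to 1249 CPM in OCsEoS. The part of these cell types in the levels of the chemokines was not tested.

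The receptors of the family were measured beside the ligands, and 9 of 15 were tested. Ccr1 was the most abundant, at 798 to 990 CPM in OCsCtr, 621 to 731 CPM in OCsEo and 662 to 735 CPM in OCsEoS. Against OCsCtr, the log2 fold change of Ccr1 was -0.39 (SE 0.07, adjusted p = 0.000532) in OCsEo and -0.33 (SE 0.07, adjusted p = 0.00166) in OCsEoS, under the cut of 0.5 although both treated groups lay below OCsCtr. In OCsEo against OCsCtr no receptor was called by edgeR or DESeq2, where 2 were lower at an unadjusted p under 0.05. Of all 13681 genes, 4069 passed that p in either direction. Ccr2, the receptor of Ccl2 and Ccl7, had a log2 fold change of 0.04 (adjusted p = 0.873) in OCsEo and 0.25 (adjusted p = 0.147) in OCsEoS.

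The remaining CC chemokine genes were low or silent. Of 11 further genes 7 had 0 counts in every library, and 2, Ccl24 and Ccl25, were tested. Neither was called in any comparison by edgeR or DESeq2, and the only unadjusted p under 0.05 was that of Ccl24, higher in OCsEoS than in OCsEo. Ccl24, a ligand of Ccr3 that attracts eosinophils, had means of 2.51, 1.73 and 2.71 CPM in OCsCtr, OCsEo and OCsEoS. Of 17 chemokines outside the CC family 10 were tested, and 1 was called higher in OCsEo and 4 in OCsEoS. Cxcl10, an interferon induced ligand of Cxcr3, was called in both (log2 fold change 0.62 and 0.59). In OCsEoS Pf4, platelet factor 4 (0.89), Cxcl14 (0.60) and Cxcl16 (0.57) were also called higher. None of the 17 was called lower against OCsCtr by edgeR or DESeq2, where 1 was lower in OCsEoS at an unadjusted p under 0.05.

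Of 13 genes of the NF-kB response, a pathway known to induce Ccl2 and several other members, 12 were tested and none was called in any comparison by edgeR or DESeq2. At an unadjusted p under 0.05, 2 of the 12 were lower in OCsEo and 3 in OCsEoS than in OCsCtr and none was higher. Of all 13681 genes, 4069 in OCsEo and 4686 in OCsEoS passed that p in either direction. Nfkbia, which encodes the inhibitor IkBa, had log2 fold changes of -0.15 in both (adjusted p = 0.0753 and 0.058). Tnfaip3, which encodes the NF-kB inhibitor A20, lay wholly below OCsCtr in both, with a log2 fold change of -0.30 (adjusted p = 0.056) in OCsEo and of -0.44 (adjusted p = 0.0049) in OCsEoS, both under the cut of 0.5. The median log2 fold change of the 12 was -0.02 in OCsEo and -0.04 in OCsEoS, beside 1.12 and 0.54 for the tested CC chemokines. Of the 12, Tnf, Il1b, Nfkbiz and Ptgs2 were low, with group means of 0.332 to 1.89 CPM. In OCsEo the log2 fold change was 0.82 for Tnf (interval -0.22 to 1.85) and 0.79 for Nfkbiz (-0.71 to 2.29). It was 0.22 for Ptgs2 (-1.61 to 2.05) and -0.69 for Il1b (-2.21 to 0.83). These intervals reach past the cut of 0.5, so a change in these genes was not excluded. The part of NF-kB signalling in the chemokine levels was not tested.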

How the data were processed

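Bulk RNA sequencing was performed on 12 cultures in 3 groups of 4. The authors trimmed paired-end reads with fastp, aligned them to GRCm38/mm10 with HISAT2 2.0.5, used featureCounts to assign them to genes and deposited the raw counts. The annotation release and the strand setting are not given in the sources used here. The deposited counts were analysed with edgeR 4.0.16 in R 4.3.3. All 12 libraries entered 1 quasi-likelihood fit with TMM factors (0.968 to 1.03) after a filter at a minimum count of 10 (filterByExpr), and p-values were adjusted over 13681 genes by Benjamini-Hochberg. Ccl8 did not pass this filter. CPM used effective library sizes and RPKM the deposited gene lengths. Intervals are 95%. Replicate pairs differed by more than sampling noise (chi-square per degree of freedom 9.99 to 35.7 over 18 pairs), so none was merged.

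The members and gene lists were chosen with earlier results of these data known. Named genes were all 10 members, up to 4 called genes of each list (or the 2 most abundant where none was called), further genes where a result turned on them, chosen after their values were seen, and for each called member the 2 genes of most similar pattern (prior count 2, mean log2 CPM of at least 1). The fit had no replicate block because the study's methods name none. The deviations of same-numbered replicates correlated at r = -0.04 to 0.09, none over 0.1, and whether the numbers pair the samples was not settled. Alternatives were DESeq2 1.42.0 on all libraries and on 2 groups, its size factors, upper-quartile scaling, other filters, edgeR on 2 groups, a replicate block, other thresholds and each library left out. The fit was tested on simulated data. Coding sequences were read from the GRCm38 genome with the GENCODE annotation, in which all 10 members had the coordinates of the table, and promoters from RefSeq. Values of 1 further gene of the lists are not reported here.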

Additional observations from a re-analysis of the deposited data

Results flagged for a closer look

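For 2 of the 9 tested members the change against OCsCtr differed between the eosinophil and the supernatant cultures by a test of the difference itself, which is the comparison of OCsEoS with OCsEo. Of all 13681 genes, 42 were called lower and 10 higher in it. For Ccl3 the log2 fold change in OCsEoS less that in OCsEo was -1.06 (edgeR, adjusted p = 0.0439), and the call was lost in 6 of 20 alternatives. For Ccl6 it was -0.59 (edgeR, adjusted p = 0.0148), and the call was lost in 3 of 20 alternatives. Both comparisons share the OCsCtr libraries, which cancel in this difference. Alox15 and Ngp were also called lower in OCsEoS than in OCsEo, and the part of added cells in these differences was not tested.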

How the results depend on the processing

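Over the alternatives, 512 values of the tested members' log2 fold changes kept their direction and their side of the thresholds, 14 gained a call, 10 lost it and 1 turned. This was Ccl22 between OCsEoS and OCsEo, which ran from -0.29 to 0.089 with a library left out and was above 0 without OCsEoS 1. Ccl8 ran from -0.112 to 0.17 CPM (OCsEoS less OCsCtr) and from -0.0201 to 0.262 CPM (OCsEoS less OCsEo), below 0 without OCsEoS 4. Ccl12 in OCsEo was called by DESeq2 on 12 libraries (adjusted p = 0.0491), and in OCsEoS by DESeq2 on 2 groups (0.0257) and without a low-count filter (0.0202). With the replicate block Ccl4 in OCsEo (adjusted p = 0.0253), Ccl12 in OCsEoS (2.99, 0.0255) and Ccl7 between OCsEoS and OCsEo (0.78, 0.0382) were called, and 9 of 12 libraries correlated best with their own number, a hint from the data and not from the design. Members called higher in OCsEoS than in OCsEo were 1 with the replicate block and 1 without a low-count filter in place of 0, and those called lower were 1 at an absolute log2 fold change over 1 in place of 2. With each library left out, members called numbered 4 to 6 higher in OCsEo, 3 to 5 higher in OCsEoS and 0 to 2 lower in OCsEoS than in OCsEo.

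Over all genes, calls in OCsEo were 447 higher and 357 lower, against 1239 and 1143 by adjusted p alone and 99 and 37 at a log2 fold change over 1. In OCsEoS they were 496 and 562, against 1620 and 1531 and against 80 and 80. Between OCsEoS and OCsEo they were 10 higher and 42 lower. The 10 became 21 by DESeq2 on 12 libraries, 19 on 2 groups, 32 without a filter, 17 with the replicate block and 3 over 1, and 1 to 12 with a library left out. The 42 became 68 without a filter, 68 by adjusted p alone and 18 over 1, and 16 to 50 with a library left out. Ccl8 had 3 counts or fewer in 6 of 12 libraries, and Ccl12 had 0, 1 and 5 counts in OCsCtr 1, 2 and 3. The causes of these shifts were not tested.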

Other observations

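Markers of cell types that the cultures were not meant to hold were low beside the osteoclast markers. The B cell, dendritic cell and stromal sums nevertheless lay above Ccl4 and Ccl5, which reached 4.99 and 3.60 CPM at most. The mast cell and basophil sum lay above Ccl5. These are sums over several genes set beside single genes, so they do not measure shares of RNA. The part of these cell types in the levels of the chemokines was not tested. The T and NK cell markers summed to 1.94 to 2.85 CPM in OCsCtr, 1.94 to 4.05 CPM in OCsEo and 1.495 to 4.02 CPM in OCsEoS, and none of the 4 tested was called in any comparison by edgeR or DESeq2 or had an unadjusted p under 0.05. The same held for the 5 mast cell and basophil markers tested, which summed to 6.05 to 8.24 CPM in OCsCtr, 6.13 to 8.05 CPM in OCsEo and 4.32 to 5.77 CPM in OCsEoS. The B cell markers summed to 7.39 to 21.4 CPM in OCsCtr, 18.1 to 20.5 CPM in OCsEo and 15.0 to 21.4 CPM in OCsEoS. None of the 5 tested was called by edgeR, where 1 was higher and 1 lower in OCsEo and 1 higher in OCsEoS than in OCsEo at an unadjusted p under 0.05, and DESeq2 called 1 higher in OCsEoS than in OCsEo. Of 7 dendritic cell markers tested, Zbtb46 was called lower in OCsEo (log2 fold change -1.77), and of 5 stromal markers tested, Runx2 was called lower in OCsEoS (-1.02). The dendritic cell markers summed to 5.25 to 13.7 CPM and the stromal markers to 13.3 to 66.2 CPM over all libraries.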
